A study of Homo sapiens with 4 samples.

Results

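The EGF family ligands and their ERBB receptors were followed in Huh1 and Huh7, a pair of established human hepatocellular carcinoma (HCC) cell lines, after silencing of CDCA8. CDCA8 encodes borealin, a subunit of the chromosomal passenger complex that guides chromosome segregation. The family was taken as 10 genes by symbol, the ligands EREG, AREG, EGF, HBEGF, TGFA and BTC and the receptors EGFR, ERBB2, ERBB3 and ERBB4. Of these, 9 had a value, 5 ligands and 4 receptors, among the 18398 genes listed in each library, and AREG was not analysed here. The family was chosen by the RPKM values of EREG, which was selected on being at least 2-fold higher with CDCA8siRNA in both cell lines, so the response of EREG to the siRNA is given as a description without a test.

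There were 4 libraries of total RNA, 1 per condition. Huh1 cells received NCsiRNA, a negative control siRNA without an endogenous target, or CDCA8siRNA, and Huh7 cells received the same pair. Both siRNAs were used at 15 nM, and RNA was taken 48 h after transfection. Each condition was 1 library of 1 line, so no spread between cultures could be measured, and all intervals below cover the counting of reads only. Levels are RPKM, reads scaled to transcript length and to the depth of the library.

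Ligands of this family are made as membrane-anchored precursors and are cut free by ADAM proteases. EGF, TGFA and AREG bind EGFR, whereas EREG, HBEGF and BTC bind both EGFR and ERBB4. ERBB2 binds no known ligand and acts as a partner in receptor pairs, and ERBB3 has little kinase activity of its own and binds neuregulins. The paired receptors signal through RAS and MAP kinases and through PI3 kinase and AKT. In liver, EGFR and its ligands are known for their part in hepatocyte proliferation during regeneration.

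EREG, epiregulin, lies on chromosome 4 of GRCh38.p14 from 74365145 to 74388749, on the same stretch as EPGN (74308470 to 74316789), AREG (74445136 to 74455005) and BTC (74744759 to 74794523). EGF lies further along chromosome 4, from 109912883 to 110013766. HBEGF is on chromosome 5 from 140332843 to 140346603, and TGFA is on chromosome 2 from 70447284 to 70553826. Among the receptors, EGFR is on chromosome 7 from 55019017 to 55211628, ERBB2 on chromosome 17 from 39688094 to 39728658, ERBB3 on chromosome 12 from 56080108 to 56103505 and ERBB4 on chromosome 2 from 211375717 to 212538802. The deposited values carry no coordinates and were made on hg19, so these positions serve only to place the genes.

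The 250 bases before the transcription start are shown for the ligands whose RPKM ratio of CDCA8siRNA over NCsiRNA was at least 2 in Huh7, which leaves out TGFA, listed at 0 there with NCsiRNA. They come from RefSeq on GRCh38.p14, which held a promoter for 8 of the 9 measured genes, and they are written 5′ to 3′ on the strand of the gene. Capitals mark a match to the AP-1 motif TGANTCA, the cyclic AMP response element TGACGTCA or the TATA motif TATAAA, each searched on both strands.
EREG, chr4:74364895-74365144, plus strand: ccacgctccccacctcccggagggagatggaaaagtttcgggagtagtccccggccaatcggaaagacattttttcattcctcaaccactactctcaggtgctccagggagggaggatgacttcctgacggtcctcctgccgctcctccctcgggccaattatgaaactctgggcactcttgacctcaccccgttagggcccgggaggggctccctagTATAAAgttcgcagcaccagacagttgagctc
HBEGF, chr5:140346604-140346853, minus strand: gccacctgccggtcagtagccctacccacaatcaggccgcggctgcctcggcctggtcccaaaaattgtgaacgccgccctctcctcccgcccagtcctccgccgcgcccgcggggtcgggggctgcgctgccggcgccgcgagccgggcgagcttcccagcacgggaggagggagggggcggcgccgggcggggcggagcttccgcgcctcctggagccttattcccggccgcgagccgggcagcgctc
BTC, chr4:74794524-74794773, minus strand: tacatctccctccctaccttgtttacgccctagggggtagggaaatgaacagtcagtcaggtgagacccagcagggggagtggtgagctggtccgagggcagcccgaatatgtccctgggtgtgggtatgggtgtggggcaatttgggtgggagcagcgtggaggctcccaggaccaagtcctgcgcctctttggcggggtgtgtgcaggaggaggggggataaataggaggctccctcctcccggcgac
EGF, chr4:109912633-109912882, plus strand: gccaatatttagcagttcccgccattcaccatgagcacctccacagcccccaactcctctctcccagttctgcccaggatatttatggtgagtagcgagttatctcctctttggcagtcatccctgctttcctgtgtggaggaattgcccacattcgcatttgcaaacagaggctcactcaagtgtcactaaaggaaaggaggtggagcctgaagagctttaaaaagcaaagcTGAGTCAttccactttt

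The promoter of EREG held TATAAA starting 32 bases before the transcription start. The promoter of EGF held TGAGTCA, a form of the AP-1 motif, starting 17 bases before it. HBEGF and BTC matched none of the 3 motifs in this window. Of 35116 RefSeq promoter windows of the same length, 10.7% held the TATA motif, 6.57% the AP-1 motif and 1.65% the cyclic AMP response element. The promoters also differed in base composition, with a GC content of 58% for EREG, 76.4% for HBEGF, 62% for BTC and 48.8% for EGF.

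As a check of the labels, CDCA8 itself was at 24.1 RPKM in Huh1 with NCsiRNA and 5.86 with CDCA8siRNA, and at 51.5 and 7.36 RPKM in Huh7. The values corresponded to 12197606 to 13384836 reads a library. All 8 hepatocyte markers examined, among them ALB and AFP, were present in every library at 4.49 RPKM or more. With CDCA8siRNA 7 of the 8 were lower in Huh1, where AFP was higher (24.8 and 27.5 RPKM), and 7 of the 8 in Huh7, where TTR was higher (29.3 and 48.5 RPKM). Their summed level, mostly ALB, was 4540 and 3502 RPKM in Huh1 and 2680 and 1918 RPKM in Huh7, and its part in the changes below was not tested. Of 5 measured markers of other cells, COL1A1 (107 and 125 RPKM) and COL1A2 (31.4 and 56.9 RPKM) were present in Huh7, which brought the summed level of that list to 139 and 184 RPKM against 0.148 and 0.155 RPKM in Huh1. The blood marker PTPRC, the endothelial marker VWF and the smooth muscle marker ACTA2 were at 1.06 RPKM or below everywhere. In bulk RNA, fewer cells of a type and less RNA per cell cannot be told apart.

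EREG was the most abundant of the 5 measured ligands in all 4 libraries, neuregulins not counted. It was measured at 5.74 RPKM in Huh1 with NCsiRNA, 15.3 RPKM in Huh1 with CDCA8siRNA, 13.6 RPKM in Huh7 with NCsiRNA and 45.5 RPKM in Huh7 with CDCA8siRNA. In both lines the CDCA8siRNA library was the higher one, and Huh7 without knockdown was already close to Huh1 with it. These levels rested on about 355, 933, 767 and 2577 reads. Among all listed genes, EREG moved from place 7792 to place 4699 by level in Huh1 and from place 5287 to place 1710 in Huh7.

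The RPKM ratio of EREG, CDCA8siRNA over NCsiRNA, was 2.67 in Huh1 (95% counting interval 2.36 to 3.02) and 3.34 in Huh7 (3.08 to 3.63). Fold changes between libraries were taken as differences of log2(RPKM + 1), for genes that reached 1 RPKM in 1 or both of the libraries compared, and a gene was called at a difference of 2-fold, which is 1 on this scale. The added 1 makes the change of a low gene smaller than its RPKM ratio. On this scale EREG differed by 1.28 in Huh1 and 1.67 in Huh7, the 8th highest change of 10940 genes and the 7th highest of 11565 genes. Across the 10357 genes that passed in both lines, 11 were at least 2-fold higher in both, with EREG among them. By the smaller change of the pair of lines, the genes just inside that threshold were NTN4 at 1.02 and CYR61 at 1.01, and those just outside it were ZNF257 at 0.997 and TFF1 at 0.994.

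**Figure D1:**
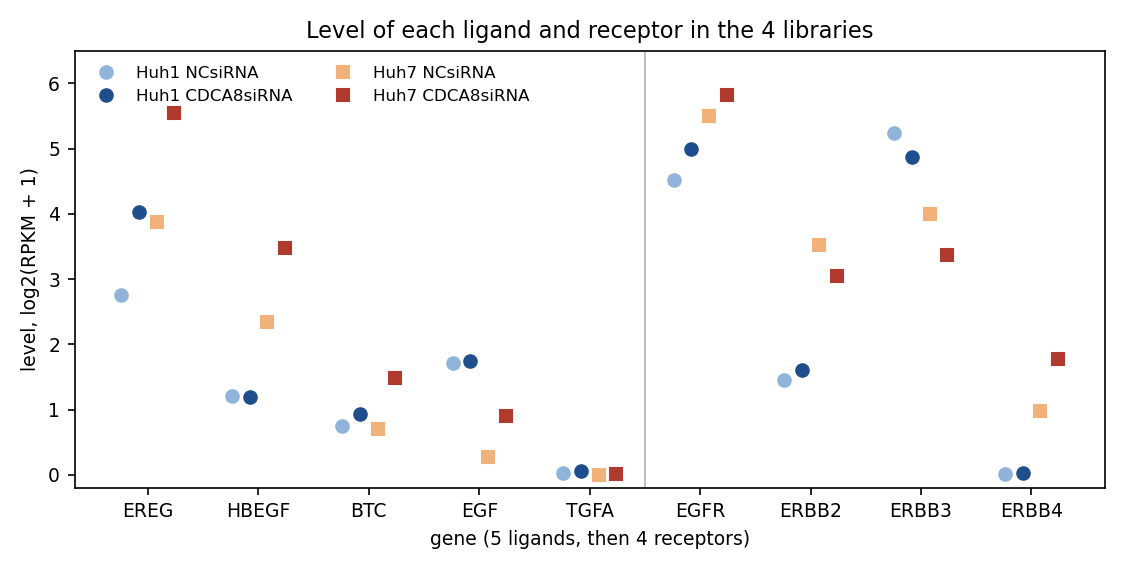
Level of the 5 measured ligands and 4 receptors in each library as log2(RPKM + 1), with circles for Huh1, squares for Huh7, light symbols for NCsiRNA and dark symbols for CDCA8siRNA. Each symbol is 1 library. EREG is the highest of the 5 ligands everywhere, from 5.74 to 45.5 RPKM, while TGFA lies at or near 0 and ERBB4 does so in Huh1.

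HBEGF, heparin-binding EGF-like growth factor, was higher with CDCA8siRNA in Huh7 and not in Huh1. Its level was 1.299 RPKM in Huh1 with NCsiRNA and 1.29 RPKM with CDCA8siRNA, and 4.09 and 10.1 RPKM in Huh7. The ratio was 0.990 in Huh1 (95% counting interval 0.626 to 1.56, about 41 and 40 reads) and 2.48 in Huh7 (2.00 to 3.10, about 119 and 297 reads). These intervals did not overlap, although the difference between the lines could not be tested without replicates. On the log2(RPKM + 1) scale HBEGF differed by -0.01 in Huh1 and by 1.13 in Huh7.

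BTC, betacellulin, was low in all libraries, at 0.678 RPKM in Huh1 with NCsiRNA, 0.917 in Huh1 with CDCA8siRNA, 0.620 in Huh7 with NCsiRNA and 1.79 in Huh7 with CDCA8siRNA. The Huh7 library with CDCA8siRNA was the highest, on 29 reads against 10 for its control, and the Huh1 libraries held 16 and 12 reads. The ratio was 2.88 in Huh7 (95% counting interval 1.37 to 6.63) and 1.35 in Huh1 (0.6004 to 3.13), so the intervals of the lines overlapped widely. BTC passed the filter in Huh7 alone, where its difference of 0.78 on the log2(RPKM + 1) scale stayed under 2-fold.

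EGF itself was a ligand of Huh1 rather than Huh7. It was at 2.27 RPKM in Huh1 with NCsiRNA, 2.35 in Huh1 with CDCA8siRNA, 0.207 in Huh7 with NCsiRNA and 0.859 in Huh7 with CDCA8siRNA. In Huh1 the ratio was 1.04 (95% counting interval 0.820 to 1.31). The ratio in Huh7 was 4.16 (2.20 to 8.49), the highest of any member there, but it rested on about 12 and 51 reads at levels under 1 RPKM, so EGF did not pass the filter in that line. TGFA, transforming growth factor alpha, was close to the limit of detection, with 1 and 2 reads in Huh1, a value listed as 0 in Huh7 with NCsiRNA and less than 1 read in Huh7 with CDCA8siRNA.

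With these levels, EREG made up 57.4% of the summed RPKM of the 5 measured ligands in Huh1 with NCsiRNA and 76.9% with CDCA8siRNA. In Huh7 its share was 73.5% and 78.1%. The summed level of the ligands was 10.002 and 19.9 RPKM in Huh1 and 18.5 and 58.3 RPKM in Huh7. EGF took 22.7% and 11.8% of the sum in Huh1 and 1.12% and 1.47% in Huh7, whereas HBEGF took 13.0% and 6.46% in Huh1 and 22.1% and 17.4% in Huh7. These shares leave out AREG and the neuregulins and describe RNA, not released ligand.

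**Figure D2:**
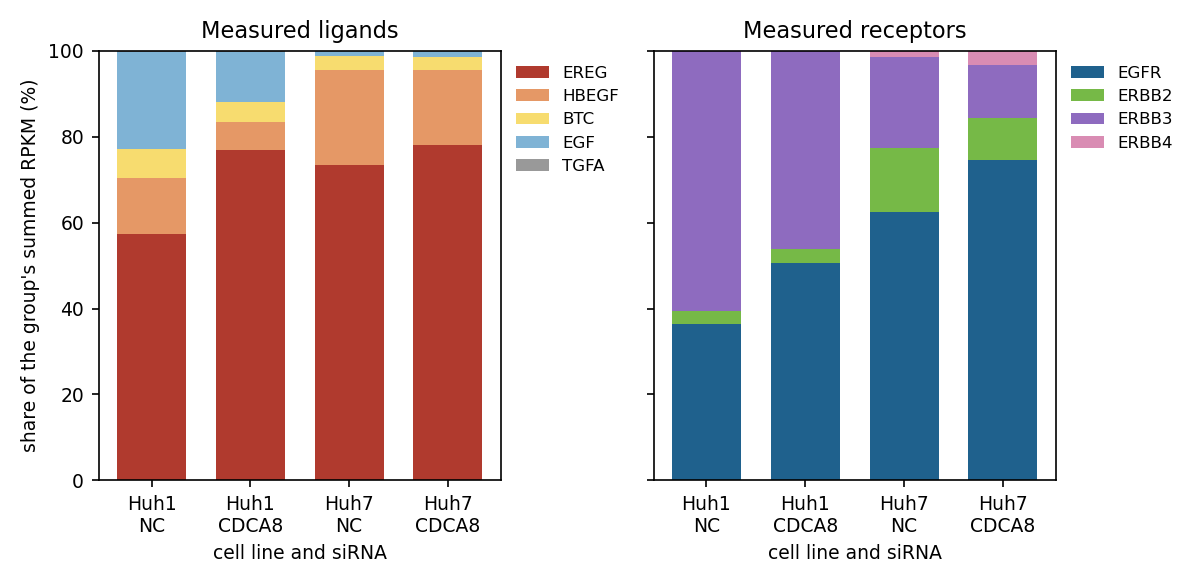
Share of each gene in the summed RPKM of the measured ligands (left) and receptors (right), in percent, for the 4 libraries. NC is NCsiRNA and CDCA8 is CDCA8siRNA. EREG fills 57.4% to 78.1% of the ligand bars, and the largest part of the receptor bars passes from ERBB3 in Huh1 with NCsiRNA to EGFR in the other 3 libraries.

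EGFR was higher with CDCA8siRNA in both lines. Its level was 22.0 RPKM in Huh1 with NCsiRNA, 30.9 RPKM in Huh1 with CDCA8siRNA, 44.2 RPKM in Huh7 with NCsiRNA and 55.4 RPKM in Huh7 with CDCA8siRNA. The order of the libraries was thus the line first and the siRNA second, with both Huh7 libraries above both Huh1 libraries. The ratio was 1.40 in Huh1 (95% counting interval 1.34 to 1.47) and 1.25 in Huh7 (1.21 to 1.3), on 2896 to 6673 reads a library. These are differences of 0.47 and 0.32 on the log2(RPKM + 1) scale, under 2-fold.

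ERBB3, the receptor of neuregulins with little kinase activity, was lower with CDCA8siRNA in both lines. It was at 36.6 RPKM in Huh1 with NCsiRNA, 28.2 RPKM in Huh1 with CDCA8siRNA, 14.99 RPKM in Huh7 with NCsiRNA and 9.29 RPKM in Huh7 with CDCA8siRNA. Both Huh1 libraries were above both Huh7 libraries, the reverse of EGFR. The ratio was 0.772 in Huh1 (95% counting interval 0.730 to 0.817) and 0.620 in Huh7 (0.562 to 0.683). On the log2(RPKM + 1) scale the differences were -0.36 and -0.64.

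ERBB2, the receptor without a known ligand, went in opposite directions in the lines. It was at 1.74 and 2.03 RPKM in Huh1 and at 10.5 and 7.27 RPKM in Huh7, NCsiRNA first. The ratio was 1.16 in Huh1, with an interval from 0.891 to 1.53 that includes no difference, and 0.695 in Huh7 (0.610 to 0.790). ERBB4, which binds neuregulins as well as HBEGF, BTC and EREG, was almost absent from Huh1, with about 1 and 2 reads. In Huh7 ERBB4 was at 0.967 RPKM with NCsiRNA and 2.42 RPKM with CDCA8siRNA, a ratio of 2.50 (2.06 to 3.06) on about 143 and 360 reads. Its difference of 0.80 on the log2(RPKM + 1) scale was nevertheless under 2-fold.

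**Figure D3:**
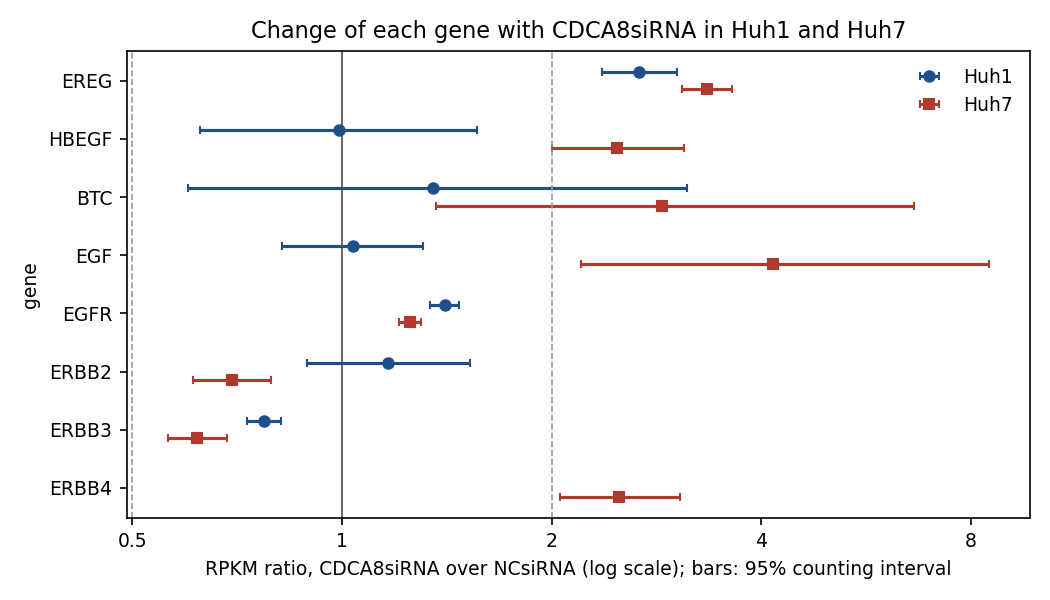
Ratio of RPKM with CDCA8siRNA over NCsiRNA for each gene in Huh1 (blue circles) and Huh7 (red squares), on a log axis. Bars are 95% counting intervals, and the solid and dashed lines mark no difference and 2-fold. TGFA in both lines and ERBB4 in Huh1 rest on a few reads and are left out. The intervals of EREG lie above 2 in both lines (2.67 and 3.34), whereas HBEGF is at 0.990 in Huh1 and 2.48 in Huh7.

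Among the receptors, EGFR made up 36.5% of the summed receptor RPKM in Huh1 with NCsiRNA, 50.5% in Huh1 with CDCA8siRNA, 62.6% in Huh7 with NCsiRNA and 74.5% in Huh7 with CDCA8siRNA. The share of ERBB3 ran the other way, at 60.6%, 46.1%, 21.2% and 12.5% in the same order. The summed receptor level was 60.4 and 61.2 RPKM in Huh1 and 70.6 and 74.4 RPKM in Huh7. In Huh7, ERBB2 took 14.8% and 9.78% of that sum, and ERBB4 took 1.37% and 3.25%.

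The order of the 9 levels followed from these values. In Huh1 with NCsiRNA it was ERBB3, EGFR, EREG, EGF, ERBB2, HBEGF, BTC, TGFA and ERBB4, from highest to lowest. With CDCA8siRNA the only change in Huh1 was that EGFR and ERBB3 traded places. EGF, ERBB2, HBEGF and BTC each overlapped the next of them in counting interval in both Huh1 libraries, as did TGFA and ERBB4, so the order inside these groups is not resolved. In Huh7 with NCsiRNA the order was EGFR, ERBB3, EREG, ERBB2, HBEGF, ERBB4, BTC, EGF and TGFA, with no separation between ERBB3 and EREG, between ERBB4 and BTC or between BTC and EGF. In Huh7 with CDCA8siRNA, EREG stood second behind EGFR, followed by HBEGF, ERBB3, ERBB2, ERBB4, BTC, EGF and TGFA, and neither HBEGF and ERBB3 nor ERBB4 and BTC were separated.

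Counted over the family, 6 of the 9 measured genes passed the filter in Huh1, of which 1 (EREG) was at least 2-fold higher and 0 were 2-fold lower. Of all 10940 genes there, 0.32% were at least 2-fold higher and 0.174% lower. In Huh7, 7 of the 9 passed, 2 were at least 2-fold higher (EREG and HBEGF) and 0 lower, where 0.873% of 11565 genes were higher and 0.7% lower. Since EREG chose the family, the remaining genes are the ones to read against these shares, with 0 of 5 higher in Huh1 and 1 of 6 in Huh7. BTC and ERBB4 passed the filter in Huh7 only through the CDCA8siRNA library, so they had to be higher there. By plain RPKM ratio, BTC and ERBB4 also reached 2-fold in Huh7, as did 2.52% of all genes there, while in Huh1 EREG alone of the passing members did, as did 1.2% of all genes.

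**Figure D4:**
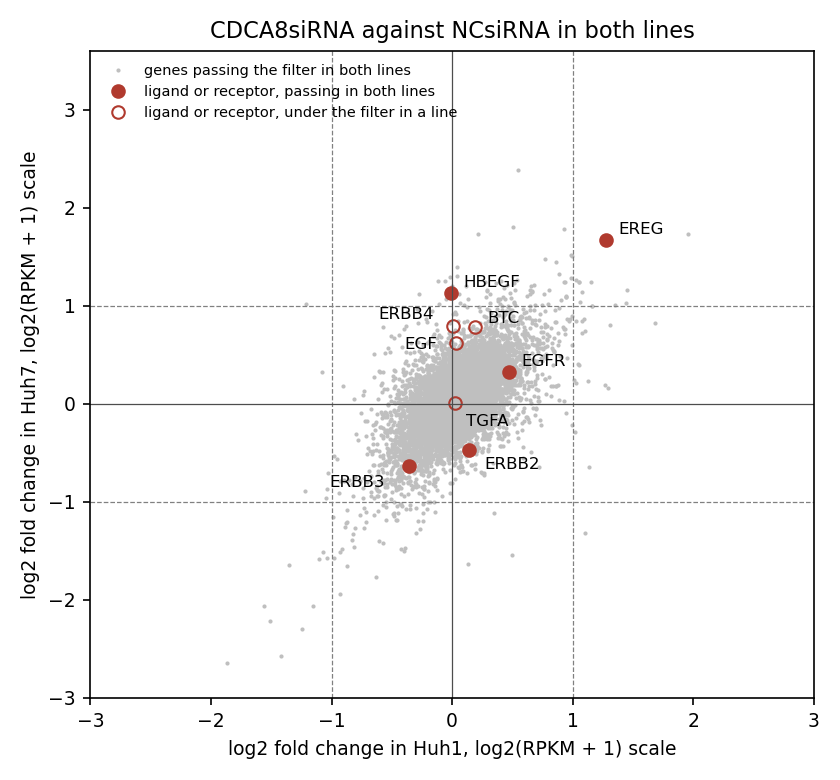
Difference between CDCA8siRNA and NCsiRNA in Huh1 (horizontal) and Huh7 (vertical) on the log2(RPKM + 1) scale. Grey dots are 10357 genes passing the filter in both lines, red dots are family members among them, and open circles are members under the filter in at least 1 line. EREG lies past 2-fold in both lines at 1.28 and 1.67, and HBEGF does so in Huh7 alone at 1.13.

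To test the siRNA, each cell line had to serve as a pair. limma was run on log2(RPKM + 1) of 12148 genes with the siRNA and the cell line as terms, where 1 residual degree of freedom remained beside a prior worth 7.48. The resulting p-values measure whether the lines changed alike and not the spread between cultures. Of the 7 members in the fit, EREG aside, EGFR rose and ERBB3 fell, and 5 did not pass an adjusted p of 0.05. Among these 7, BTC and ERBB4 entered the fit only through Huh7 with CDCA8siRNA. A rise in that line was thus built in, and their differences are descriptions. Over all genes, 3.74% passed as higher and 2.65% as lower. EGFR differed by 0.40 (SE 0.0939, limma, adjusted p = 0.0446) and ERBB3 by -0.50 (SE 0.108, limma, adjusted p = 0.0330). BTC differed by 0.49 (SE 0.197) and ERBB4 by 0.40 (SE 0.226), given without a test. HBEGF differed by 0.56 and did not pass (SE 0.235, limma, adjusted p = 0.201). EGF at 0.33 (limma, adjusted p = 0.351) and ERBB2 at -0.16 (adjusted p = 0.595) also missed the threshold. The calls of EGFR and ERBB3 were both lost without the mean-variance trend in limma (adjusted p = 0.130 and 0.107), without the filter on low values (0.445 for both) and without the covariate.

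The lines differed in the family before any knockdown. With NCsiRNA, 3 of 6 passing members were at least 2-fold higher in Huh7 than in Huh1 and 2 were lower. Without EREG, whose values chose the family, 2 of 5 were higher and 2 lower. EGF passed the filter through Huh1 alone, so it had to be lower in Huh7. Among all 11896 genes, 17% were higher and 10.2% lower, and the median difference of all genes was 0.14. ERBB2 had the highest ratio of the passing members, 6.0 (95% counting interval 4.87 to 7.45), followed by HBEGF at 3.14 (2.19 to 4.59) and EREG at 2.37 (2.09 to 2.70). EGFR was at a ratio of 2.01 (1.92 to 2.10) but at 0.97 on the log2(RPKM + 1) scale. On that scale ERBB2 differed by 2.06, HBEGF by 1.15 and EREG by 1.12, whereas ERBB3 differed by -1.23 and EGF by -1.44. Quantile normalization removed the shift of all genes and put EREG at 0.97 and HBEGF at 0.86, both under 2-fold. ERBB4 did not pass the filter in this comparison, with 0.00770 RPKM in Huh1 and 0.967 RPKM in Huh7.

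Over both siRNAs, the coefficient of the cell line in the same limma fit was read for the 4 members besides EREG that reached 1 RPKM in every library, and all 4 passed. Since 42.5% of all genes passed as higher in Huh7 and 28.7% as lower, this count is not particular to the family. The p-values here measure whether the lines differed alike under both siRNAs and not the spread between cultures. ERBB2 was higher in Huh7 by 1.76 (SE 0.162, limma, adjusted p = 1.70e-05), HBEGF by 1.72 (SE 0.235, adjusted p = 0.000203) and EGFR by 0.90 (SE 0.0939, adjusted p = 3.85e-05). ERBB3 was lower by this fit (-1.37, SE 0.108, limma, adjusted p = 6.52e-06). Without the filter on low values, HBEGF (limma, adjusted p = 0.115) and ERBB2 (0.0581) no longer passed. EREG differed by 1.31 and is given without a test, since its values in these libraries chose the family. EGF (-1.14) entered the fit only through Huh1, and ERBB4 (1.36) and BTC (0.24) only through Huh7, so their differences are also descriptions.

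Of the 5 other ligands of the family, EPGN and the neuregulins NRG1 to NRG4, 2 passed the filter in Huh1 and 1 in Huh7. The others were too low to be called. Of those passing, 0 reached 2-fold with CDCA8siRNA, where 0.32% and 0.873% of all genes were higher and 0.174% and 0.7% lower. In limma 0 of 2 tested passed, also at an unadjusted p of 0.05, which 22.8% of all genes reached. NRG4, a ligand of ERBB4, was mainly a transcript of Huh1, at 6.72 and 7.09 RPKM there and 0.677 and 1.05 RPKM in Huh7. In Huh1 with NCsiRNA, NRG4 was above EREG, which was at 5.74 RPKM. EPGN, the neighbour of EREG on chromosome 4, was listed at 0 in both Huh1 libraries and at 0.194 and 0.192 RPKM in Huh7.

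Of 8 genes for ligand shedding, 6 passed the filter in Huh1 and 7 in Huh7, and 0 reached 2-fold in either line. In limma 0 of 7 tested passed, with 4 at an unadjusted p under 0.05, which 22.8% of all genes reached. ADAM9, a protease that cuts membrane proteins, was at 79.7 and 87.4 RPKM in Huh1 and 169 and 203 RPKM in Huh7. ADAM10, a protease known to release EGF and BTC, was at 30.7 and 28.5 RPKM in Huh1 and 35.4 and 31.9 RPKM in Huh7. RHBDF1 and FRMD8 encode partners of the protease ADAM17. RHBDF1 was at 4.37 and 5.93 RPKM in Huh1 and 3.53 and 4.66 RPKM in Huh7, and FRMD8 was at 11.1 and 13.4 RPKM in Huh1 and 11.4 and 15.2 RPKM in Huh7 (limma, adjusted p = 0.137 and 0.114).

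Of 14 genes that restrain or turn over the receptors, 13 passed the filter in each line, and 0 were called at 2-fold. In limma 0 of 13 passed, with 5 at an unadjusted p under 0.05, again beside 22.8% of all genes. CBLB, a ubiquitin ligase that marks receptors for degradation, was at 3.83 and 4.58 RPKM in Huh1 and 6.48 and 11.1 RPKM in Huh7 (limma, adjusted p = 0.101). SH3KBP1, an adaptor of receptor endocytosis, was at 3.65 and 3.02 RPKM in Huh1 and 26.1 and 17.4 RPKM in Huh7 (limma, adjusted p = 0.107). RNF41, a ubiquitin ligase of ERBB3, was at 10.8 and 9.06 RPKM in Huh1 and 8.36 and 6.15 RPKM in Huh7 (limma, adjusted p = 0.145). SOCS4 was at 14.4 and 16.3 RPKM in Huh1 and 10.2 and 13.8 RPKM in Huh7 (limma, adjusted p = 0.164).

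Of 24 genes that relay the signal inside the cell, 0 reached 2-fold and 2 passed limma as higher with CDCA8siRNA, beside 3.74% of all genes. In limma, 0 of the 24 passed without the trend, without the filter or without the covariate (5, 8 and 0 at an unadjusted p under 0.05). NRAS, a RAS protein, was at 34.7 and 48.04 RPKM in Huh1 and 69.1 and 90.1 RPKM in Huh7 (limma, 0.42, SE 0.0865, adjusted p = 0.0290). PTPN11, the phosphatase SHP2 that acts upstream of RAS, was at 46.3 and 59.6 RPKM in Huh1 and 55.0 and 72.0 RPKM in Huh7 (limma, 0.37, SE 0.0854, adjusted p = 0.0404). AKT1, a kinase downstream of PI3 kinase, differed by 0.31 and did not pass (limma, adjusted p = 0.0887). The median difference of the list in that fit was 0.04, against 0.03 for all genes.

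The genes known as outputs of and brakes on MAP kinase signalling were mostly above 0 with CDCA8siRNA. Of 14, 13 were above 0 in Huh1, as were 11 of the 13 passing the filter in Huh7, where 55.1% and 54.5% of all genes were above 0. The median difference of the list was 0.66 in Huh1 and 0.30 in Huh7, against 0.02 and 0.03 for all genes. At 2-fold, 1 gene was called higher in Huh1 and 2 in Huh7, and 0 were called lower, beside 0.32% and 0.873% of all genes higher. In limma, 6 of 14 passed as higher and 0 as lower, beside 3.74% and 2.65% of all genes. Without the trend 2 of the 14 passed, and 0 did without the filter (6 at an unadjusted p under 0.05) or without the covariate (2 unadjusted). This list was assembled with earlier results of these data known, so its count and the p-values of its genes are descriptions.

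FOSL1, a subunit of the AP-1 transcription factor, was at 11.96 and 26.4 RPKM in Huh1 and 7.86 and 18.6 RPKM in Huh7, past 2-fold in both lines at 1.08 and 1.14. DUSP5, a nuclear phosphatase of ERK, was at 14.8 and 29.5 RPKM in Huh1 and 26.7 and 58.4 RPKM in Huh7, with differences of 0.95 and 1.10. IER3, an early response gene, was at 26.1 and 46.3 RPKM in Huh1 and 33.0 and 53.9 RPKM in Huh7. DUSP4, another phosphatase of MAP kinases, was at 0.931 and 2.31 RPKM in Huh1 and 6.13 and 9.01 RPKM in Huh7. In limma the adjusted p was 0.00220 for FOSL1, 0.00260 for DUSP5, 0.00495 for IER3 and 0.0329 for DUSP4. The remaining 2 of the 6, named after their values were seen, were PHLDA1 (adjusted p = 0.0290) and SPRED1 (adjusted p = 0.0343), the latter an inhibitor of RAS signalling.

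The 5 genes with a profile most like that of EREG were found by the Euclidean distance of log2(RPKM + 1) over the 4 libraries, after the mean of each gene was subtracted, among 12147 other genes. QPCT, a glutaminyl cyclase, came first at a distance of 0.333, with 1.58 and 3.69 RPKM in Huh1 and 4.19 and 13.1 RPKM in Huh7. NEXN, an actin-binding protein, followed at 0.375, with 2.23 and 5.68 RPKM in Huh1 and 7.35 and 18.8 RPKM in Huh7. KLRC2 at 0.439, TBC1D9 at 0.533 and P2RY1 at 0.594 came next. KLRC2 has near-identical paralogs that may share its reads, so its value is uncertain. As EREG is, all 5 were higher in Huh7 than in Huh1 and higher with CDCA8siRNA in both lines, which the choice by likeness itself brings about.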

How the data were processed

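RNA from Huh1 and Huh7 cells was sequenced in 4 libraries, 1 per condition, made with an Illumina TruSeq kit. The authors deposited 1 RPKM value for each of 18398 genes a library, and the submitters' processing notes name CASAVA 1.8.2, TopHat2 2.0.9 and hg19. The unit is not stated with the values and was deduced from them. The quantifier, annotation and filters are not given in the sources used here.

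The value of 1 read in each library was recovered from the RPKM and the transcript lengths of GENCODE release 29, which matched 17768 genes. It gave 13384836 and 13193713 reads for Huh1 (NCsiRNA, CDCA8siRNA) and 12197606 and 12266642 for Huh7. Reads behind a gene follow from its length, which may differ from the length used by the authors. For BTC the length was taken from values that fell on whole reads within 0.04 of a read. Exact 95% intervals of levels (Poisson) and of ratios (binomial) cover counting error only.

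Folds were differences of log2(RPKM + 1) for genes that reached 1 RPKM in 1 or more of the libraries compared, called at 2-fold. limma 3.58.1 in R 4.3.3 (lmFit, then eBayes with trend) was fitted to the 4 libraries with cell line and siRNA as terms, and p-values were adjusted over all genes by the Benjamini-Hochberg method. Scripts were tested on simulated data. Python 3.11.15 was used for the rest.

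The members, the gene lists and the motifs were chosen with earlier results of these data known. The text names all members, CDCA8, from each list up to 4 genes with the largest smaller change of the pair of lines in 1 direction and any past 2-fold, and the 5 genes most like EREG. Alternatives were a pseudocount of 0.1 RPKM, no filter, a minimum of 5 RPKM, quantile and upper quartile normalization, and limma without trend or covariate. The plain ratio without a pseudocount was added after the data were seen. AREG was not analysed here, and the values of 1 gene that this rule names are not reported here.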

Additional observations from a re-analysis of the deposited data

Results flagged for a closer look

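The change with CDCA8siRNA had opposite signs in the lines for 2 members. HBEGF differed by -0.00839 in Huh1 and 1.13 in Huh7 on the log2(RPKM + 1) scale. The Huh1 value is small against its counting error, as its RPKM ratio of 0.990 had a 95% interval from 0.626 to 1.56. ERBB2 differed by 0.14 in Huh1 and -0.47 in Huh7, and its interval in Huh1 also included no difference, from 0.891 to 1.53. The difference between the lines was not tested for either gene, since there is 1 library for each line and siRNA.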

How the results depend on the processing

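No replicate could be left out and no replicate block could be fitted, as the labels give 1 library for each line and siRNA and no replicate numbers, and the cell line term of limma was the only pairing. Members at least 2-fold apart in Huh7 went from 2 to 4 with a pseudocount of 0.1 RPKM and to 4 without one, as BTC and ERBB4 joined. Between the lines with NCsiRNA the count went from 5 to 3 with a minimum of 5 RPKM, where EGF and HBEGF no longer passed the filter, and to 3 with quantile normalization. That count rose to 6 with a pseudocount of 0.1 RPKM and without one, as EGFR joined. The count of members in limma for the siRNA fell from 2 to 1 with a pseudocount of 0.1 RPKM (EGFR, adjusted p = 0.0506), and to 0 without the filter, without the trend and without the covariate (2, 3 and 0 members at an unadjusted p under 0.05). For the cell line, only ERBB2, HBEGF, EGFR and ERBB3 were read, and all of them passed in the main fit. Without the filter, EGFR (limma, adjusted p = 0.0344) and ERBB3 (0.0365) still passed, while HBEGF (0.115) and ERBB2 (0.0581) did not. The limma difference of BTC between the lines reversed to -0.10 with quantile normalization, and the difference of EGF in Huh1 went from 0.03 to -0.04. Over all genes, limma called 776 genes for the siRNA, 1260 with quantile normalization, 45 without the trend (2490 at an unadjusted p under 0.05), 0 without the filter (2050 unadjusted) and 0 without the covariate (75 unadjusted). Quantile normalization moved the split of higher and lower genes from 35 and 19 to 22 and 20 in Huh1, and from 2028 and 1211 to 1644 and 1504 between the lines. A pseudocount of 0.1 RPKM gave 107 higher and 57 lower genes in Huh1 and 269 and 153 in Huh7, and the plain ratio gave 131 and 61 in Huh1 and 291 and 169 in Huh7. Where no cause is shown by the construction of an alternative, the cause was not tested. Of the single folds of members, 80 stayed within 1 standard deviation of counting error and 27 moved beyond it. Of the single limma values, 86 kept their side of the threshold and 12 lost it. Both tallies include EREG, and BTC, ERBB4 and EGF where they passed the filter through 1 group alone. They therefore describe the settings and are no test of the members. At the depth of these libraries, TGFA, and ERBB4 in Huh1, rested on 2 reads or fewer a library.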

Other observations

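The genes beside EREG on chromosome 4 of GRCh38.p14 were listed by position, from CXCL3 to BTC. MTHFD2L, a mitochondrial enzyme of folate metabolism (74114560 to 74303099), was at 1.27 and 1.61 RPKM in Huh1 and 1.67 and 2.11 RPKM in Huh7, NCsiRNA first. The chemokine gene CXCL2 (74097040 to 74099195) was at 1.43 and 2.43 RPKM in Huh1 and 10.4 and 10.03 RPKM in Huh7. CXCL3 (74036589 to 74038689), its close relative, was at 0.713 and 1.22 RPKM in Huh1 and 5.90 and 4.63 RPKM in Huh7. Like EREG, CXCL2 and CXCL3 were higher in Huh7 than in Huh1, but in neither line did any of the 3 reach 2-fold with CDCA8siRNA on the log2(RPKM + 1) scale. This does not extend to other chemokine genes. IL8, which was not among the listed neighbours, differed by 1.68 in Huh1 and 0.83 in Huh7.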
